A study of Mus musculus with 840 samples.

Results

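Luminal GFP+ cells of the mouse mammary gland are described here, single cells that were sorted from the luminal gate although they came from a lineage labelled in basal cells. They were chosen by the gate and GFP status in the deposited annotation. Of the cells labelled luminal and GFP+ outside a repeat run of 1 plate, 6 were removed for 1400 or fewer detected genes, 2 for 100000 or fewer reads on genes, 1 for fewer than 2 *Epcam* reads, and 32 for more than 10 reads of *Dcpp1*, a salivary gland gene, and 82.1% were kept. The series holds 840 cells, 744 without the repeat run, of which 624 passed the same thresholds. Luminal GFP+ cells were 30.1% of these 624, and basal and intermediate GFP+ cells, against which they are described, 17.9% and 39.1%.

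The mice carried a Rosa26 allele from which tamoxifen-activated Cre releases the Notch1 intracellular domain (N1ICD) together with a nuclear GFP. Cre was CreERT2 driven by the smooth muscle actin promoter (SMACreERT2/N1ICD) or by the keratin 5 promoter (K5CreERT2/N1ICD), and tamoxifen was given to mice before puberty. GFP+ cells therefore all carry active N1ICD, and no GFP+ cell is a wild-type control. Cells were gated by EpCAM and CD49f, after exclusion of blood and endothelial cells, index-sorted singly into plates and sequenced with Smart-seq2, which gives reads over whole transcripts without molecular identifiers. Since EpCAM and CD49f set the gates, their genes *Epcam* and *Itga6* are not among the results. Chase times were 1, 3, 4 and 6 weeks on SMACreERT2 plates and 3 weeks on both K5CreERT2 plates, and each plate held cells of 1 or 2 mice.

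In the mammary epithelium an inner luminal layer lines the lumen and secretes milk, while the outer basal layer contracts and lays down the basement membrane. Luminal cells are divided into hormone receptor positive (HRpos) cells and hormone receptor negative (HRneg) cells, which include progenitors marked by Kit and Aldh1a3. Notch receptors are cleaved on contact with Delta or Jagged ligands, and the released intracellular domain binds the DNA-binding protein RBPJ to switch on genes such as those of the Hes and Hey families. In the mammary gland Notch activity is known to favour luminal over basal fate.

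The kept luminal GFP+ cells came from 7 plates. The SMACre 1-week plate held 9 of them, the SMACre 3-week plates A and B 18 each, the SMACre 4-week plate 51, the SMACre 6-week plate 81, and the K5Cre 3-week plates G and L 6 and 5. Reads per cell on genes ran from 103081 to 2220049 with a median of 331578, and the median cell had 5564 detected genes. The median depth was 1328907 and 2040251 reads on the K5Cre plates, which were sequenced in batch 3, against 257507 to 513722 on the SMACre plates of batches 1 and 2. Cre line and batch cannot be told apart in these cells. The 6-week plate, with the most luminal GFP+ cells, held no basal or intermediate GFP+ cells that were kept, so it enters levels and shares but no comparison between gates. The comparisons rest on the 6 other plates, each with at least 3 cells of all 3 gates.

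Several features of the plates bear on what follows. On 4 SMACre plates the luminal and intermediate GFP+ columns of the study's supplement are interchanged relative to the labels used here, with matching counts on 3 of them and counts that differ by 1 cell for the luminal label on the 4-week plate. On each of the 6 plates compared the luminal-labelled sum was higher than the intermediate-labelled sum for all 7 markers of luminal cells described below. Plate L is called 3 weeks in its description and 6 weeks in its sample names. The study's supplement lists both K5Cre plates at 3 weeks, the time used here, but the sample names leave the chase of plate L uncertain. Of the kept luminal GFP+ cells, 3 had over 1% of their reads on a list of salivary gland genes, 1 on the SMACre 1-week plate and 2 on the SMACre 3-week plate A. The highest salivary value of a cell was 370887.7 per 1000000 reads on genes on the 1-week plate and 487709.4 on the 3-week plate A. These cells stayed in the main sums and shares. On the 3-week plate A the *Dcpp1* threshold kept 18 of 44 cells, and 2 of these had at most 1 *Dcpp1* read. At the *Dcpp1* threshold, the 17 cells with 6 to 10 reads had a median of 75.1 CPM (reads per 1000000 reads on genes) on the salivary list, and the 7 cells just outside it, with 11 to 100 reads, had a median of 300.03 CPM. All 22 cells with over 1000 *Dcpp1* reads, which the rule removed, had over 10000 salivary CPM.

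The luminal label was first checked against 7 markers, the progenitor genes *Kit* and *Aldh1a3*, the tight junction gene *Cldn3*, the simple epithelial keratins *Krt8*, *Krt18* and *Krt19*, and *Elf5*, a transcription factor of the alveolar lineage. In cells thinned to 100000 reads each, 55.9% of luminal GFP+ cells had a read of every one of the 7 markers, and 89.9% (exact 95% CI 84.7 to 93.8) had a read of at least 5. At least 5 markers were read in 3 basal GFP+ cells (2.68%, 95% CI 0.556 to 7.63) and 9 intermediate GFP+ cells (3.69%, 95% CI 1.70 to 6.89). The luminal shares include the 6-week plate, which had no kept GFP+ cells of the other gates. Over the 6 plates with all 3 gates the mean share was 77.4% ± 23.6 (SD) in luminal, 1.25% ± 1.94 in basal and 3.71% ± 3.84 in intermediate GFP+ cells. *Krt8* was read in 98.4% of luminal GFP+ cells, *Krt18* in 98.9%, *Cldn3* in 96.3%, *Krt19* in 93.6%, *Kit* in 87.8%, *Aldh1a3* in 74.5% and *Elf5* in 70.2%. Intervals cover counting error only, and reads without molecular identifiers are not independent molecules.

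The share was lowest on the plate with the shortest chase. On the SMACre 1-week plate 3 of 9 cells had at least 5 of the markers, against 13 of 18 on the 3-week plate A, 16 of 18 on the 3-week plate B, 46 of 51 at 4 weeks and 81 of 81 at 6 weeks. On the K5Cre plates it was 6 of 6 cells on G and 4 of 5 on L. The median number of markers per cell was 4.0 on the 1-week plate and 7.0 on the 6-week plate. With 1 plate at 1, 4 and 6 weeks, a difference between chase times cannot be told apart from a difference between mice or plates.

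**Figure D1:**
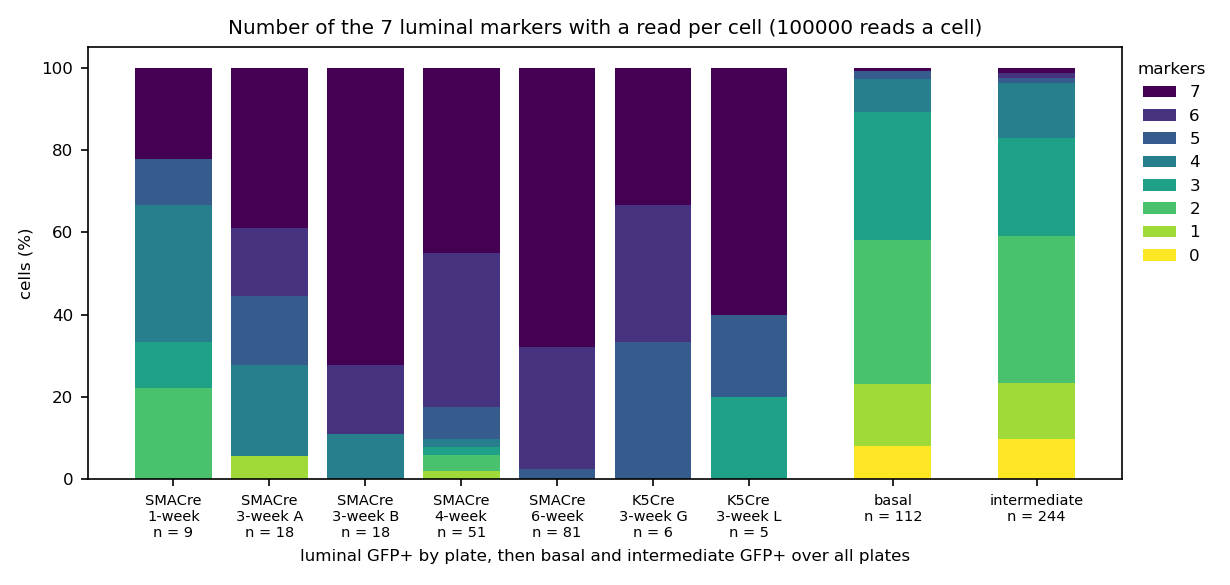
Share of cells (%) by the number of the 7 luminal markers with at least 1 read among 100000 reads per cell, for luminal GFP+ cells on each plate and for all basal and intermediate GFP+ cells. All 81 cells of the 6-week plate carry 5 or more markers, and 3 of 9 cells of the 1-week plate do.

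Promoters of 4 genes that separate the gates are shown, *Krt8* and *Kit* for the luminal side and *Krt14* and *Acta2* for the basal side. Sequences are from RefSeq on GRCm38.p6 and cover 250 bases before to 50 bases after the gene start, on the strand of the gene. Of the 7 markers, 5 matched an entry. Capitals mark the 6-letter core TGGGAA read by RBPJ and the core AGGAAG read by ETS factors such as Elf5, each searched on both strands, so that TTCCCA and CTTCCT count as well. Among all 32851 promoters of 300 bases, 25.6% held the RBPJ core and 35.4% the ETS core.
*Krt8* (chr15:102004293-102004592, minus strand): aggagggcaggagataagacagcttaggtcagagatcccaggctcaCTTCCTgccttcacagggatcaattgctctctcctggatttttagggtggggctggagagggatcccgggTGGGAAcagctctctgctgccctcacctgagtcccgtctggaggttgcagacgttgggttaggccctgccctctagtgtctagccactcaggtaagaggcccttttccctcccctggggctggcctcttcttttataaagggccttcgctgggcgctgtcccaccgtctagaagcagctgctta
*Kit* (chr5:75574737-75575036, plus strand): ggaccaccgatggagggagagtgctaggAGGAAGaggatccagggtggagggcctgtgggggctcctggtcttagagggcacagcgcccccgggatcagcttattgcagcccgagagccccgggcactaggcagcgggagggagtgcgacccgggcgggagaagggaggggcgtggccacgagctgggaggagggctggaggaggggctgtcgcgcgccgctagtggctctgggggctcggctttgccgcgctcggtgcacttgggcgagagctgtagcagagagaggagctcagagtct
*Krt14* (chr11:100205981-100206280, minus strand): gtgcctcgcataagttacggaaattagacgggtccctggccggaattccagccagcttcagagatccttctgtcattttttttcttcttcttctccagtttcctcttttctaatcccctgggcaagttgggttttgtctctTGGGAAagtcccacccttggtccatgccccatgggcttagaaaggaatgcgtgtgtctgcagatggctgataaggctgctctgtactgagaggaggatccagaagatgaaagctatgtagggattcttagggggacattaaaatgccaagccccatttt
*Acta2* (chr19:34255324-34255623, minus strand): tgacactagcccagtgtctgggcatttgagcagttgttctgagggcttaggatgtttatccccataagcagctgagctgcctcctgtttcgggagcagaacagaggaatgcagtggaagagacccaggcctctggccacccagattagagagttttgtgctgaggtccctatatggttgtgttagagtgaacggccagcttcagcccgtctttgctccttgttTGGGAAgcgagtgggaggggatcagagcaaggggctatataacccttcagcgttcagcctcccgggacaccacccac
In *Krt8* the RBPJ core lies at chr15:102004471-102004476 and an ETS core, on the other strand, at chr15:102004541-102004546. *Kit* holds an ETS core at chr5:75574765-75574770, *Krt14* an RBPJ core at chr11:100206134-100206139, and *Acta2* an RBPJ core at chr19:34255395-34255400, which starts 27 bases before the gene start. Both cores are common, so a match here is a description of the sequence only. Over whole lists, the RBPJ core was in 1 of 5 luminal marker promoters, 5 of 12 junction promoters, 3 of 9 contractile, 6 of 13 matrix, 0 of 9 apical transport and 1 of 2 basal keratin promoters, and the ETS core in 2, 3, 2, 4, 4 and 0 of the same.

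To measure levels, reads were summed over the cells of a gate on a plate and scaled to CPM. A sum does not tell a lower level in each cell from a smaller share of expressing cells. Values over plates are given in the order SMACre 1-week, 3-week A, 3-week B, 4-week and 6-week, then K5Cre G and L, and the basal and intermediate sums in the same order without the 6-week plate. The luminal sums of *Kit*, a receptor tyrosine kinase, were 224.97, 751, 760, 751, 2056, 297.9 and 296.4 CPM. The basal sums were 11.5, 0.829, 0.470, 0.608, 0 and 0 CPM, and the intermediate sums 0.458, 33.7, 8.40, 5.29, 1.34 and 19.9 CPM. Every luminal sum was above every basal and every intermediate sum. *Aldh1a3*, an enzyme of retinoic acid synthesis, had luminal sums of 135.02, 176.1, 582, 353, 435, 1314 and 2474 CPM, with the highest values on the K5Cre plates. Its basal sums lay between 0 and 1.61 CPM and its intermediate sums between 0 and 107.7 CPM. The intermediate sum of plate L, at 107.7 CPM, was the nearest to the luminal range.

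*Elf5* was the most even of the markers, at 76.3, 55.9, 77.1, 64.3, 96.3, 64.9 and 74.5 CPM in the luminal sums. It was at or below 1.17 CPM in the 6 basal sums and at or below 6.50 CPM in the 6 intermediate sums, so the groups did not overlap. *Cldn3* ran at 539, 1078, 1378, 1356, 1608, 563 and 1190 CPM in luminal sums, against 0.203 to 22.9 CPM in basal and 20.9 to 218.1 CPM in intermediate sums. The keratins were graded rather than absent outside the luminal gate. *Krt8* was at 1263, 2074, 3418, 2312, 1512, 1685 and 3767 CPM in luminal sums, 144.4 to 389 CPM in basal sums and 190 to 569 CPM in intermediate sums. *Krt18*, its filament partner, was at 1665 to 6202 CPM in luminal sums and at 69.7 to 380 CPM and 240 to 995 CPM in the basal and intermediate sums. *Krt19* ran from 1032 to 3015 CPM in luminal sums, from 2.34 to 187.9 CPM in basal sums and from 70.7 to 621 CPM in intermediate sums. *Krt8* and *Krt18* have processed copies in the genome that could take part of their reads.

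**Figure D2:**
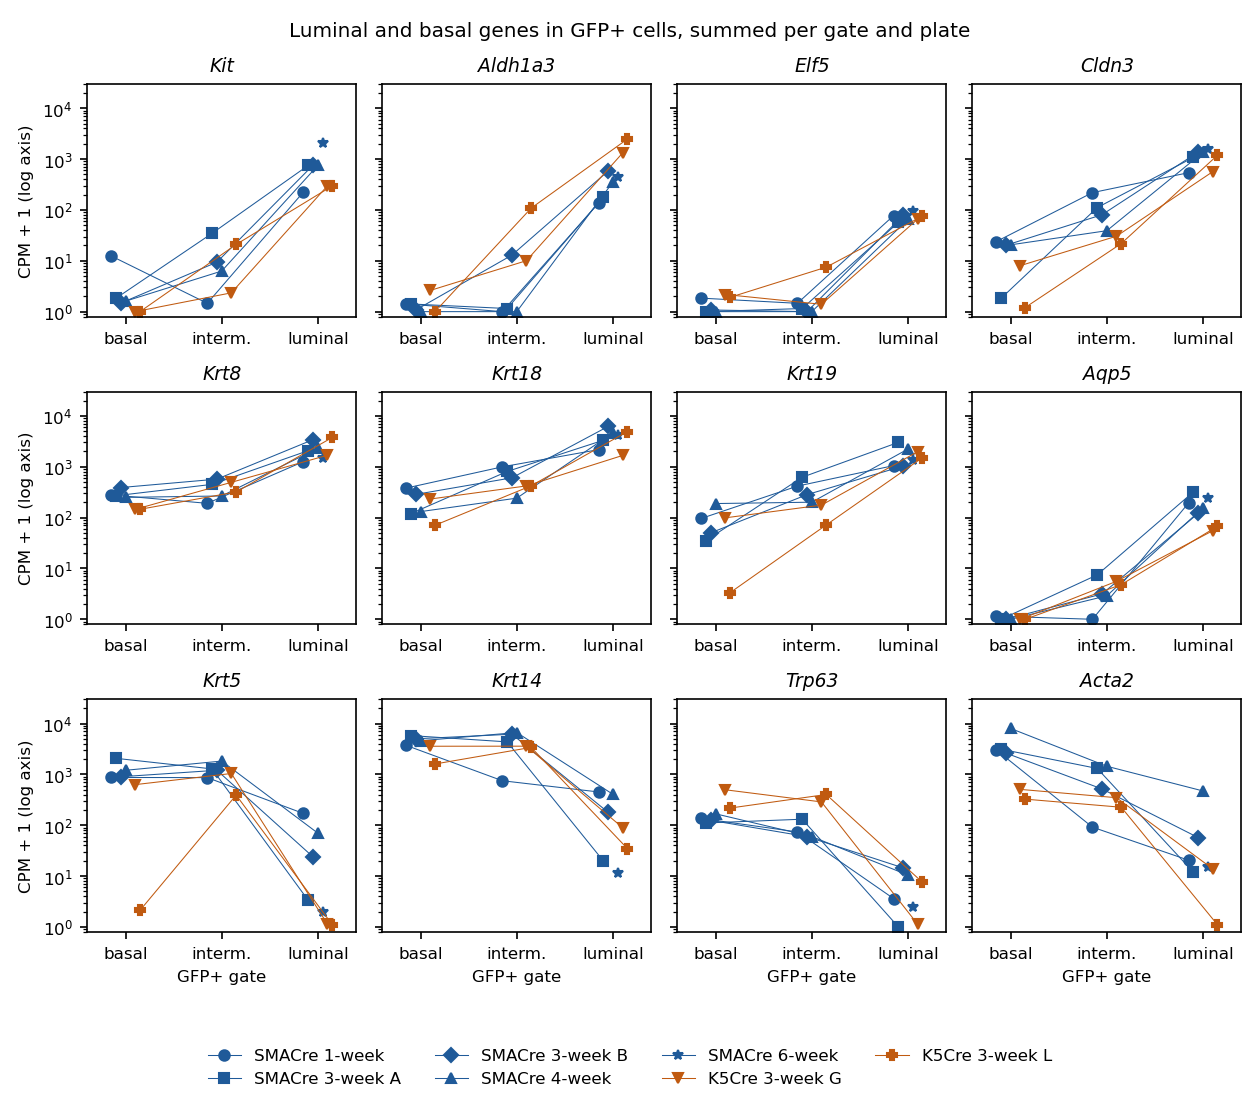
Level of 12 genes in CPM + 1 (log axis) in summed basal, intermediate and luminal GFP+ cells, with 1 symbol per plate (SMACre blue, K5Cre orange) and lines joining the gates of a plate. The 8 luminal genes are higher in the luminal than in the basal sum on every plate compared, while *Krt5*, *Krt14*, *Trp63* and *Acta2* are lowest there, and the 6-week plate (star) has a luminal sum only.

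The comparison of luminal with basal GFP+ cells asks how far cells in the luminal gate differ from cells of the same labelled origin that are still in the basal gate. By the quasi-likelihood test of edgeR with the plate as a block, 374 of 13796 tested genes (2.71%) passed an adjusted p of 0.05. Of all genes tested, 1.09% (150 genes) were higher and 1.62% lower in luminal GFP+ cells, and the median log2 fold change over all genes tested was 0.04. Without any test, 6.28% of genes were higher and 4.38% lower in the luminal sum on 6 of 6 plates. All 7 markers rose, with a median log2 fold change of 6.91. The shifts were 3.17 ± 0.32 (SE) for *Krt8* (adjusted p = 0.000202), 4.28 ± 0.46 for *Krt18* (0.000258), 4.85 ± 0.72 for *Krt19* (0.0027) and 6.91 ± 0.92 for *Cldn3* (0.0016). For *Kit* (0.00415), *Aldh1a3* (0.00202) and *Elf5* (0.00345), basal sums on 2 plates held no read, so the fitted fold change depends on the prior count and is not given. All 7 calls held without any 1 of the 6 plates. They also held with at most 1 *Dcpp1* read per cell and on the SMACre plates alone, and with Cre line at a chase time as the unit in place of the plate all but that of *Kit* held.

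The number of calls itself moved with single plates. Of genes tested, 0.964% passed without the SMACre 3-week plate A, 1.11% without the 3-week plate B, 1.29% without the 4-week plate and 1.61% without the K5Cre plate G, against 2.71% with all plates, and no gene called with all plates, where tested, changed its direction in any of these. On the K5Cre plates alone 2 genes passed, with 11 luminal GFP+ cells in all. Of the 76 named genes that passed against basal cells, 42 passed without each of the 6 plates in turn. Against intermediate cells it was 10 of 52.

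The share of cells with basal keratins was compared next. *Krt5* and *Krt14* are the keratin pair of basal epithelia, and a cell was counted with 10 or more of 100000 reads for either. In the luminal gate 25 GFP+ cells (13.3%, exact 95% CI 8.79 to 19.002) met this. By plate it was 4 of 9 cells at 1 week (44.4%), 2 of 18 (11.1%) and 3 of 18 (16.7%) at 3 weeks, 12 of 51 at 4 weeks (23.5%), 2 of 81 at 6 weeks (2.47%), and 1 of 6 and 1 of 5 on the K5Cre plates. In the basal gate it was 93.8% and in the intermediate gate 93.9% of cells. The luminal share depended on the number of reads asked for. With a single read it was 42.6% (95% CI 35.4 to 49.96), from 31.4% at 4 weeks to 55.6% at 1 week and 46.9% at 6 weeks, so the low value of the 6-week plate was seen at 10 reads and not at 1. In basal and intermediate GFP+ cells a single read was found in 95.5% and 95.9%, and in luminal GFP- cells in 39.2% (95% CI 25.8 to 53.9). Over the 6 plates the luminal share was lower by 72.5 ± 16.2 percentage points (SD) than the basal share and by 64.3 ± 28.998 points than the intermediate share, and lower on 6 of 6 plates in each case. The exact permutation test over plates, which flips the sign of each plate's difference, gave p = 0.03125 for both (adjusted over 4 share tests 0.03125), the smallest value that 6 plates allow. With a single read the differences were -53.3 and -48.1 points and the adjusted p was 0.03125 in the same exact permutation test.

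The reverse held for the progenitor pair. A read of both *Kit* and *Aldh1a3* was found in 72.3% of luminal GFP+ cells (exact 95% CI 65.4 to 78.6), in 1 basal GFP+ cell (0.893%) and in 5 intermediate GFP+ cells (2.05%). By plate the luminal share was 22.2% at 1 week, 50.0% and 88.9% on the 3-week plates A and B, 62.7% at 4 weeks, 85.2% at 6 weeks, and 4 of 6 and 4 of 5 cells on the K5Cre plates. With 10 reads of each gene it was 56.4% over all plates, 1 of 9 cells at 1 week and 51 of 81 at 6 weeks. At 1 read it exceeded the basal share by 61.4 ± 24.3 points and the intermediate share by 60.7 ± 22.9 points, on 6 of 6 plates each (two-sided exact permutation test, p = 0.03125, adjusted 0.03125). Cells with both pairs were few. There were 14 with basal keratins together with *Kit* and *Aldh1a3*, and they were spread over all 7 plates. Another 41 luminal GFP+ cells had neither pair, 4 of 9 at 1 week, 9 of 18 and 1 of 18 on the 3-week plates A and B, 13 of 51 at 4 weeks, 11 of 81 at 6 weeks, and 2 of 6 and 1 of 5 on plates G and L. Without the 3 luminal cells rich in salivary reads and 1 such intermediate GFP+ cell of the 3-week plate B, the comparison of basal keratins with the intermediate gate gave a difference of -63.1 points and an adjusted p of 0.0625 in the exact permutation test, and the other 3 an adjusted p of 0.04167.

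**Figure D3:**
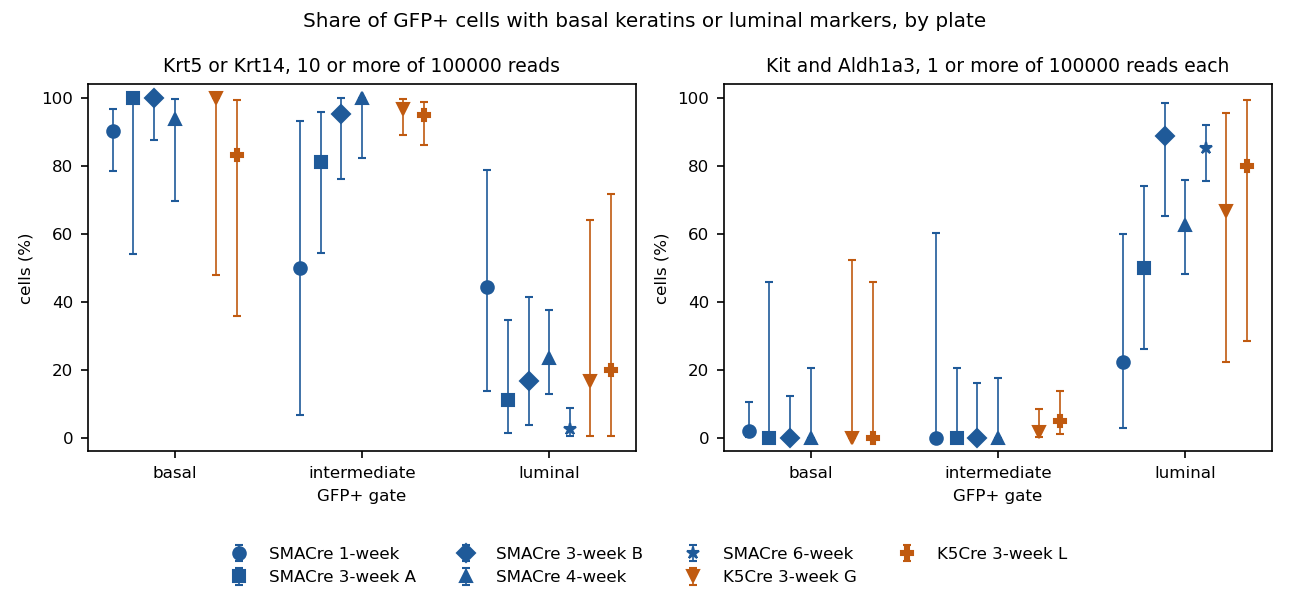
Share of GFP+ cells (%) with *Krt5* or *Krt14* (left) and with both *Kit* and *Aldh1a3* (right) by gate, 1 point per plate with its exact 95% confidence interval. At 10 reads luminal shares of basal keratins lie between 2.47% and 44.4%, and at 1 read luminal shares of the *Kit* and *Aldh1a3* pair lie between 22.2% and 88.9%, against at most 4.92% in the other gates.

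Genes were then followed in lists by function. Of 16 tested transcription factors of the luminal lineage, 2 rose against basal cells, *Elf5* and its ETS-family relative *Ehf*, and none fell. *Ehf* was at 231.4, 262.5, 256.02, 287.02, 272.7, 177.02 and 98.99 CPM in luminal sums, above the basal sum of the same plate on 6 of 6 plates. Its basal sums were 6.66, 0.415, 3.52, 0.913, 102.3 and 73.4 CPM, so the ranges overlapped through the K5Cre plates (log2 fold change 4.98 ± 1.15, adjusted p = 0.0319). The call on *Ehf* was lost without any 1 of the 4 SMACre plates. *Gata3*, a master regulator of luminal fate, had luminal sums of 70.96 to 309.2 CPM and basal sums of 2.78 to 231.8 CPM and did not pass (adjusted p = 0.901). *Sox9* was at 404 to 1658 CPM in luminal and 74.2 to 532 CPM in basal sums and did not pass either (0.27).

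Of 16 genes of tight and adherens junctions, 5 rose and 1 fell, with a median log2 fold change of 3.31. *Cldn4* ran at 1559, 1776, 2782, 2405, 3162, 1478 and 3055 CPM in luminal sums, above the basal range of 2.49 to 1183 CPM (5.30 ± 1.22, adjusted p = 0.0317). The highest basal sum, 1183 CPM, was that of K5Cre plate G. *Cldn7* (5.47 ± 1.07, 0.0133) and *Cgn*, which encodes the junction protein cingulin (7.32 ± 1.03, 0.00202), rose with it, as did *Crb3*, a gene of apical polarity (3.17 ± 0.75, 0.0343). The call on *Cgn* held without each plate in turn. That on *Crb3* was lost without any single plate, that on *Cldn4* without any plate but K5Cre G, and that on *Cldn7* without the 3-week plate A or B. *Cdh3*, the P-cadherin gene of basal cells, fell by 4.14 ± 0.90 on the log2 scale (adjusted p = 0.0229), from 96.1 to 498 CPM in basal sums to 0 to 48.8 CPM in luminal sums, a call lost without any 1 of the 4 SMACre plates. *Cdh1*, the E-cadherin gene of both layers, did not pass (0.0582).

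Transport genes of the apical side formed the list with the largest share of rises after the markers, 6 of 13 tested, with a median log2 fold change of 5.93 and no fall. *Aqp5*, a water channel, was at 193.4, 319, 120, 155.2, 238.4, 53.98 and 66.5 CPM in luminal sums. It was read in 1 of the 6 basal sums, at 0.153 CPM, and at 0 to 6.48 CPM in intermediate sums (adjusted p = 0.000104 against basal and 0.0067 against intermediate cells). With at most 1 *Dcpp1* read per cell it passed against basal but not against intermediate cells. *Aqp5* is a salivary acinar gene as well, and the salivary list summed to 35264 and 40845 CPM in the luminal sums of the 1-week plate and 3-week plate A, mostly *Bpifa2*. Without the 3 cells rich in salivary reads, *Aqp5* was at 208.98 and 343 CPM on these plates, and the salivary list was at 0 CPM in the luminal sums of both K5Cre plates. *Slc5a8* and *Slc28a3*, which carry monocarboxylates and nucleosides, *Kcnn4*, a potassium channel, *Atp10b*, a lipid flippase of the P4 family, and *Slc5a1*, a sodium glucose cotransporter (adjusted p = 0.0435), also rose. The calls on *Aqp5*, *Slc28a3* and *Atp10b* held without each plate in turn, that on *Atp10b* not on SMACre plates alone, while *Slc5a8* and *Kcnn4* passed in 2 and *Slc5a1* in 1 of the 6 fits that left out 1 plate. *Atp10b* had luminal sums of 46.5, 46.6, 34.2, 25.4, 68.2, 73.3 and 40.2 CPM and no read in any basal sum. Against a floor of 3 reads over the basal sums it was at least 861-fold higher in the summed luminal reads (adjusted p = 0.00788). Folds of this kind, here and below, describe the summed reads only and are not confidence bounds.

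Of 11 innate defence genes 5 rose and none fell, with a median log2 fold change of 5.93. *Clu*, a secreted chaperone, was at 2593, 1899, 5276, 6101, 3437, 3189 and 5071 CPM in luminal sums and at 1.42 to 164.2 CPM in basal sums (5.93 ± 0.89, adjusted p = 0.00299). *Wfdc18*, of the whey acidic protein family, was at 501 to 1394 CPM against 0 to 104.4 CPM (0.0169), and *Ltf*, the lactoferrin gene, at 15.4 to 844 CPM against 0 to 1.49 CPM (0.0365). *Cd14* (0.0372) and *Tnfaip2* (0.0118) rose too. Of these 5 calls that on *Clu* held without each plate in turn, while *Tnfaip2* passed in 4, *Wfdc18* in 3 and *Cd14* and *Ltf* in 1 of the 6 fits that left out 1 plate. Without the 3 salivary-rich cells *Clu* was at 2865 and 2137 CPM on the 1-week plate and 3-week plate A. *Lcn2*, also an antibacterial gene, overlapped between basal sums, 58.3 to 1749 CPM, and luminal sums, 444 to 1880 CPM (0.908). Of 9 milk genes tested 1 rose, *Btn1a1*, which takes part in milk fat secretion (0.034), and it passed in 2 of those 6 fits. The casein gene *Csn3* was above the basal range on all plates, 305.2 to 1331 CPM against 0 to 64.2 CPM, and missed the threshold (0.0661). *Csn2*, the beta-casein gene, was too low to be tested and reached 35.9 CPM in the luminal sum of the 6-week plate, against at most 0.201 CPM in the other luminal sums.

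Contractile, matrix and other basal genes were on the basal side of the comparison. Of 12 contractile genes 7 fell and none rose, with a median log2 fold change of -6.09. *Acta2*, smooth muscle actin and the source of the SMACre promoter, was at 3027, 3129, 2625, 7999, 506.1 and 325 CPM in basal sums. In luminal sums it was at 19.5, 10.9, 56.1, 471, 14.2, 12.9 and 0.106 CPM, and the 4-week plate, highest in both gates, made the ranges overlap (-6.26 ± 0.95, adjusted p = 0.00302). *Mylk* (0.00383), *Myl9* (-7.34 ± 1.22, 0.00495), *Tpm2* (-3.65 ± 0.59, 0.00459) and *Cnn1* (0.00793) fell with it, and of these 5 calls that on *Cnn1* was lost without the 3-week plate A. *Myh11*, smooth muscle myosin, was at 0 to 38.2 CPM in luminal and 3.52 to 721.3 CPM in basal sums and missed the threshold (0.0664).

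Of 5 basal keratins 2 fell. *Krt14* was at 451, 18.9, 178.6, 405, 10.4, 88.9 and 33.8 CPM in luminal sums and at 3717, 5794, 5015, 4593, 3578 and 1602 CPM in basal sums (-4.83 ± 0.71, adjusted p = 0.00268). *Krt5*, the source of the K5Cre promoter, was at 0.106 to 169.4 CPM in luminal sums and 628 to 2070 CPM in basal sums, except for plate L, whose basal sum held 1.12 CPM (-5.62 ± 1.43, 0.0495). The call on *Krt14* held without each plate in turn but not on SMACre plates alone, and *Krt5* passed in 2 of the 6 fits that left out 1 plate. *Krt17*, which luminal cells can also express, did not pass (0.432). Its luminal sums spread widely, at 1516, 420, 566, 592, 22.8, 0.952 and 1249 CPM, with the 6-week plate and plate G far below the rest. Of 9 basal transcription factors 3 fell, *Trp63*, *Snai2* and *Mef2c*. The call on *Trp63* held without each plate in turn but not on SMACre plates alone, *Snai2* was lost without the 3-week plate A, the 3-week plate B or plate G, and *Mef2c* without any single plate. *Trp63*, which encodes p63 and is required for basal epithelia, was at 2.62, 0, 13.5, 9.47, 1.46, 0.136 and 6.56 CPM in luminal sums and 110 to 497 CPM in basal sums (-5.48 ± 1.00, 0.00872). Its reads were found in 10 luminal GFP+ cells (5.32%), 74.1% of basal and 72.95% of intermediate GFP+ cells at 100000 reads per cell.

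Of 20 matrix and basement membrane genes 10 fell and none rose, with a median log2 fold change of -3.10. *Sparc*, a collagen-binding matrix protein, was at 519 to 2200 CPM in basal sums and at 21.3, 4.51, 42.1, 173.5, 5.59, 0.136 and 0.317 CPM in luminal sums (-7.04 ± 0.99, adjusted p = 0.00202). The basement membrane genes *Hspg2* (-3.12 ± 0.52, 0.00506), *Col4a2* (-4.19 ± 0.67, 0.00418) and *Lamb1* (-3.07 ± 0.51, 0.00495) and the microfibril gene *Fbn1* (-7.09 ± 1.08, 0.00327) were among those that fell. The call on *Hspg2* was lost with at most 1 *Dcpp1* read per cell. Fibroblast genes, checked because collagen genes mark stroma, summed to at most 6.75 CPM in luminal sums, to 2.79 to 76.7 CPM in basal sums and to 11.9 to 232.4 CPM in the intermediate sums compared, and 0 of the 3 of them that were tested passed. Their part in the matrix result was not tested. Of 13 other basal genes 7 fell, among them the chemokine gene *Cxcl14* (-5.09 ± 0.95, 0.00977), *Igfbp3* (-7.89 ± 1.37, 0.00642), the Wnt pathway gene *Lgr5* (0.00788) and the caveolin gene *Cav1* (-2.04 ± 0.34, 0.00495). The call on *Lgr5* was lost on SMACre plates alone, and those on *Lgr5* and *Igfbp3* with Cre line at a chase time as the unit. *Cav1* did not vanish from the luminal gate, with 13.6 to 187.1 CPM in the luminal sums against 52.5 to 664 CPM in the basal sums.

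**Figure D4:**
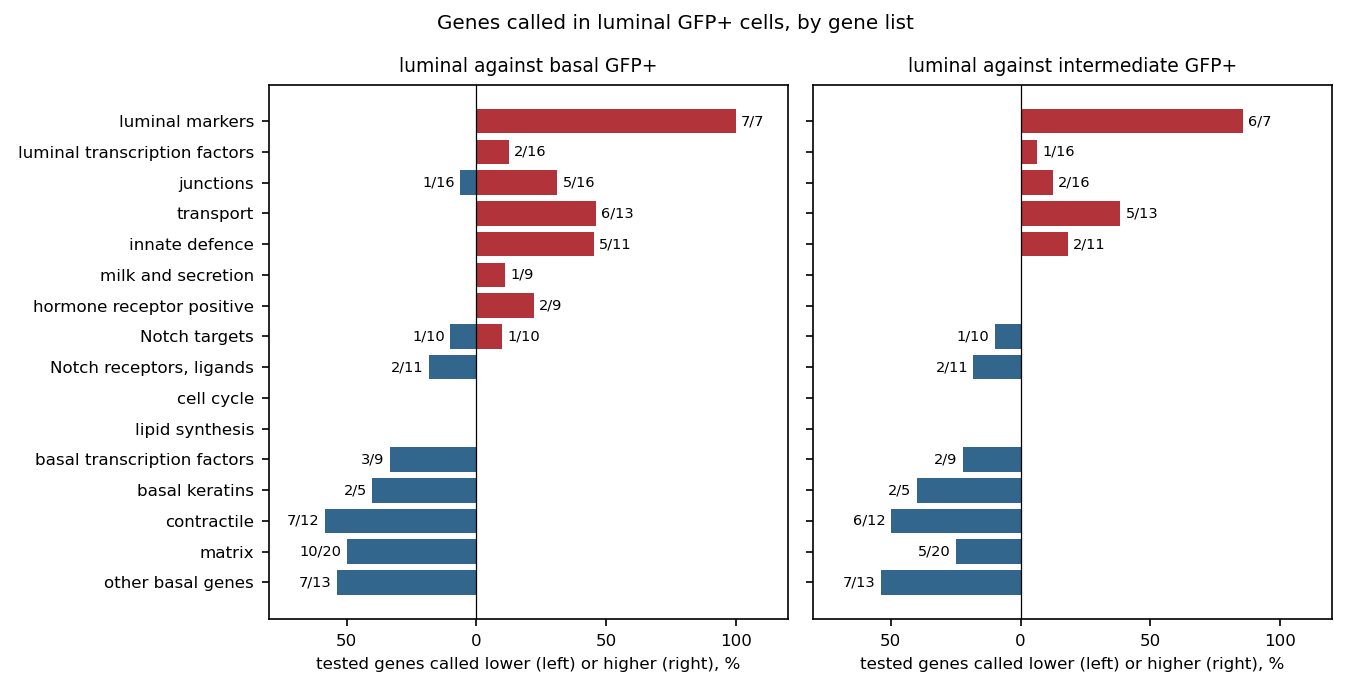
Share of the tested genes of each list (%) called lower (blue, left) or higher (red, right) in luminal than in basal (left panel) or intermediate (right panel) GFP+ cells, with counts called of those tested. Markers, junction, transport and defence genes are among the lists with rises. Contractile, matrix, basal keratin, basal transcription factor and other basal genes are among those with falls. The background is 1.09% higher and 1.62% lower (basal) and 0.297% higher and 1.01% lower (intermediate) of all genes. The panels share the luminal sums.

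The Notch pathway itself was examined, since GFP+ cells carry the active N1ICD allele by design. Reads of *Notch1* include those of the N1ICD allele, which the counts do not separate. Luminal sums of *Notch1* were 463, 335, 621, 514.9, 855, 188.7 and 96.98 CPM, basal sums 478, 168.3, 369, 352, 183.5 and 307.4 CPM and intermediate sums 280, 326, 606, 524, 390 and 165.3 CPM. The gates overlapped, and the log2 differences were 0.01 ± 0.34 against basal (adjusted p = 0.995) and -0.23 ± 0.33 against intermediate cells (0.923). An interval of 2 SE on either side of these differences stays within 1 on the log2 scale. On the K5Cre plates alone the difference to basal cells was -0.98.

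Target genes gave no common direction. Of 10 tested, *Ccnd1*, the cyclin D1 gene, rose and *Myc* fell against basal cells, and the median log2 fold change was 1.85. *Ccnd1* was at 270, 583, 893, 615, 419, 195.2 and 289.03 CPM in luminal sums and at 0 to 107.1 CPM in 5 of the 6 basal sums, and the remaining one, of the 4-week plate, was below every luminal sum as well (adjusted p = 0.027). It passed in 2 of the 6 fits that left out 1 plate. *Myc* was at 131.8, 410, 317, 396, 655, 177.2 and 160 CPM in luminal sums and 636, 1045, 883, 1045, 420 and 174.6 CPM in basal sums, lower on 6 of 6 plates (-1.42 ± 0.28, 0.014), and the plate L pair, 160 against 174.6 CPM, was the closest. The call on *Myc* was lost without the 3-week plate A or B. The targets *Hes1*, *Hey1* and *Nrarp* did not pass. *Hes1* was at 20.4 to 308.3 CPM in luminal and 22.8 to 206.96 CPM in basal sums (0.91), *Hey1* at 15.2 to 228.8 against 6.10 to 74.5 CPM (0.636), and *Nrarp*, a feedback inhibitor of Notch, at 6.98 to 59.3 against 0 to 16.8 CPM, higher on 6 of 6 plates with overlapping ranges (0.356). In single cells at 100000 reads, the mean share with a *Nrarp* read over the 6 plates with all 3 gates was 42.3% ± 9.66 (SD) in luminal, 12.4% ± 6.64 in basal and 17.7% ± 9.88 in intermediate GFP+ cells, a difference in shares that was not tested. In the same order the mean shares were 61.3%, 62.4% and 65.1% for *Hes1*, and 37.9%, 30.4% and 29.7% for *Hey1*. For *Heyl* they were 22.8%, 5.98% and 4.33%, and these were not tested either.

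Among the ligands *Dll1* and *Jag2* were lower in the luminal gate. *Dll1*, a Delta ligand, had no read in 5 of the 6 luminal sums compared and 3.92 CPM on the 4-week plate, against 29.1 to 194.7 CPM in basal and 22.02 to 104.5 CPM in intermediate sums (adjusted p = 0.00311 and 0.00699). *Jag2*, a Jagged ligand, was at 0 to 2.99 CPM in luminal and 32.6 to 99.5 CPM in basal sums (-6.57 ± 1.06, 0.00446). Its intermediate sums were 28.7 to 102.6 CPM except on the 1-week plate, where the 4 cells held no read (0.0156). Both calls against basal cells held without each plate in turn, while against intermediate cells that on *Dll1* was lost without the 3-week plate A and *Jag2* passed in 2 of the 6 fits that left out 1 plate. On SMACre plates alone, and with Cre line at a chase time as the unit, neither gene passed against either gate. *Jag1* did not pass (0.0929), with 365 CPM in the luminal sum of plate L against 18.6 to 55.7 CPM on the other plates. *Dll1* and *Jag2* were the ones that fell among 11 tested receptors, ligands and cofactors, of which none rose. The receptors *Notch2* and *Notch3* did not pass against either gate.

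**Figure D5:**
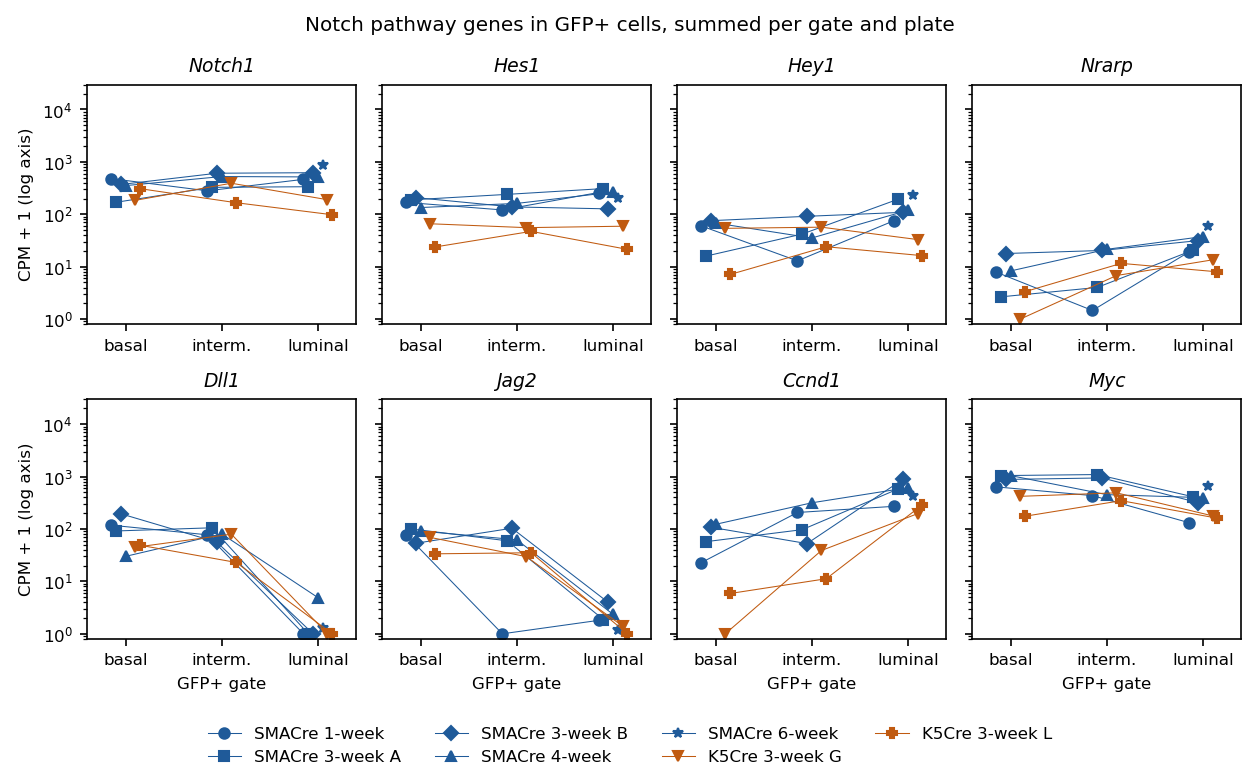
Level of 8 Notch pathway genes in CPM + 1 (log axis) in summed basal, intermediate and luminal GFP+ cells, 1 symbol per plate (SMACre blue, K5Cre orange). *Notch1*, *Hes1* and *Hey1* overlap between gates, *Dll1* is at 0 in 5 of the 6 luminal sums compared, *Jag2* is at 2.99 CPM or less in the luminal gate, and *Ccnd1* is above all basal sums there.

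Against the intermediate gate, which lies between the basal and luminal gates in EpCAM and CD49f staining, the comparison asks what separates cells that have reached the luminal gate from those in between. Of 13796 genes 1.31% passed, 41 of them higher (0.297%) and 140 lower (1.01%) in luminal GFP+ cells, with a median log2 fold change of -0.01 over all genes. Without any test, 4.96% were higher and 3.28% lower on 6 of 6 plates. The luminal sums are the same as in the comparison with basal cells. The count fell to 27 without the SMACre 3-week plate A, 33 without the 3-week plate B, 66 without the 4-week plate, 53 without plate G and, as a share of genes tested, to 0.875% without plate L, and it rose to 1.72% without the 1-week plate. None of the genes that passed with all plates, where tested, changed direction without any of these plates. On the K5Cre plates alone edgeR called no gene, and 859 genes had a p below 0.05 before adjustment.

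Of the 7 markers 6 rose, with a median log2 fold change of 4.03 over the list. *Krt8* shifted by 2.58 ± 0.31 (adjusted p = 0.00235), *Krt18* by 2.73 ± 0.43 (0.00699), *Cldn3* by 4.03 ± 0.81 (0.0283) and *Kit* by 5.81 ± 1.18 (0.0291). *Krt19* was above every intermediate sum and missed the threshold (2.78 ± 0.65, 0.0504). The call on *Krt8* held without any 1 plate, and that on *Kit*, *Aldh1a3* and *Cldn3* was lost without 3-week plate A, 3-week plate B, the 4-week plate or plate G. That on *Krt18* was lost without the 3-week plate B, and that on *Elf5* without the 3-week plate A or B. With at most 1 *Dcpp1* read per cell, *Kit*, *Aldh1a3*, *Cldn3* and *Elf5* did not pass, nor did they with Cre line at a chase time as the unit. On SMACre plates alone *Kit*, *Aldh1a3*, *Cldn3* and *Krt18* did not pass. *Krt8* passed in each of these settings.

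After the markers, transport genes had the largest share of rises, 5 of 13 with none falling, *Aqp5*, *Slc28a3*, *Atp10b*, *Kcnn4* and *Atp6v1b1*. *Atp6v1b1*, a subunit of the proton pump, was at 56.9, 235.4, 252.8, 220, 1082, 272.9 and 244.5 CPM in luminal sums and at 0.108 to 16.05 CPM in intermediate sums (0.0491). The call on *Aqp5* was lost without the 3-week plate A, with at most 1 *Dcpp1* read and with Cre line at a chase time as the unit, while *Slc28a3* passed in 2 of the 6 fits that left out 1 plate, and *Atp10b*, *Kcnn4* and *Atp6v1b1* in 1. The junction genes *Cldn3* and *Cgn* (0.0495) rose, the call on *Cgn* being lost without any single plate, while *Cldn4*, whose intermediate sums reached 1929 CPM on plate G, did not pass (0.17). Of the defence genes *Clu* was at 74.5 to 956 CPM in intermediate sums and did not pass (0.0765), and *Wfdc18* (0.044) and *Tnfaip2* (0.0414) were the 2 of 11 that did. The call on *Tnfaip2* was lost without any single plate, and *Wfdc18* passed in 1 of the 6 fits that left out 1 plate.

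On the basal side contractile genes fell in 6 of 12, matrix genes in 5 of 20, basal keratins in 2 of 5 and other basal genes in 7 of 13, and none of these lists had a rise. Many of these calls were lost without 1 plate or another. Of the contractile genes *Mylk* passed in 4, *Acta2* in 3 and *Cnn1* and *Tpm2* in 2 of the 6 fits that left out 1 plate, and of the matrix genes *Fbn1* passed in 6, *Sparc* in 5, *Hspg2* in 4, *Lamb1* in 3 and *Col4a2* in none. *Krt14* and *Cav1* passed in all 6 but not with Cre line at a chase time as the unit, nor did *Krt14* on SMACre plates alone or *Cav1* with at most 1 *Dcpp1* read, and *Igfbp3* passed in 4, *Lgr5* and *Cxcl14* in 2, and *Krt5*, *Trp63* and *Snai2* in 1. *Krt14* was at 750 to 6655 CPM in intermediate sums, and every luminal sum was below them (-4.96 ± 0.74, adjusted p = 0.0065). *Trp63* was at 58.7 to 402 CPM in intermediate sums (-5.15 ± 1.02, 0.0253). *Acta2* in the intermediate gate was at 90.7, 1308, 515.7, 1444, 347 and 224.9 CPM (-4.56 ± 0.92, 0.0279). *Sparc*, at 221.95 to 1671 CPM (-6.32 ± 0.96, 0.00691), and *Fbn1*, at 27.5 to 170 CPM (-7.50 ± 1.08, 0.00567), did not overlap with their luminal sums, the highest of which was 173.5 CPM for *Sparc* and 3.21 CPM for *Fbn1*.

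The genes with the largest changes included some outside the lists. *Gabrp*, a subunit of the GABA-A receptor, was at 155.5, 90.8, 71.1, 50.3, 21.6, 0.272 and 41.98 CPM in luminal sums and had 1 read in all basal sums (adjusted p = 0.00495). Plate G, at 0.272 CPM, was far below the other plates, and the call was lost without the 1-week plate. *Rasef*, a small GTPase of the Rab family, was at 18.2 to 46.9 CPM with no basal read, at least 528-fold higher in the summed reads (0.0122), a call lost without the 3-week plate A. It was also lost with at most 1 *Dcpp1* read per cell, on SMACre plates alone and with Cre line at a chase time as the unit. *Cytip*, which binds the cytohesin exchange factors, was at 150, 167.8, 919, 505.1, 637, 433 and 88.9 CPM in luminal sums, 0 to 1.61 CPM in basal and 0 to 3.44 CPM in intermediate sums (0.0016 and 0.00699). Both calls on *Cytip* held without each plate in turn, but that against intermediate cells was lost with Cre line at a chase time as the unit. *Hp*, the haptoglobin gene, was at 7.64 to 266.4 CPM, with at most 0.539 CPM in the intermediate sums compared (0.0154), and passed in 3 of the 6 fits that left out 1 plate. Cwh43, Rasal1, Slc5a9, Il1rn and Ltk complete the largest rises over basal cells with *Atp10b*, *Aqp5* and *Aldh1a3*, and *Elf5*, Muc20, Faah and Bglap3 belong to those over intermediate cells. Of the first 5 Il1rn passed without each plate in turn but not on SMACre plates alone, Rasal1 in 5, Slc5a9 in 3, Cwh43 in 1 and Ltk in none of the 6 fits that left out 1 plate, and against intermediate cells Muc20 passed in 1 of the 6, Faah in none and Bglap3 in 1 of the 5 in which it was tested.

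The largest falls were of genes nearly silent in the luminal gate. *Pcdh7*, a protocadherin, had 2 reads in the 6 luminal sums together, against 13.2 to 75.2 CPM in basal and 6.53 to 47.7 CPM in intermediate sums (adjusted p = 0.000104 and 0.000219). *Npr1*, the receptor of atrial natriuretic peptide, had 1 read, against 19.2 to 60.1 and 15.4 to 86.2 CPM (0.000104 and 0.000219). Both held without each plate in turn, with at most 1 *Dcpp1* read and on SMACre plates alone. *Mmp2*, a matrix metalloproteinase, was at 0 to 0.871 CPM against 12.5 to 228.6 CPM in intermediate sums (0.00567), and *Sncg*, gamma-synuclein, at 0 to 0.201 against 1.42 to 52.7 CPM (0.00342). *Art4*, an ADP-ribosyltransferase, had no luminal read on any of the 7 plates and was at least 244.97-fold lower in the summed luminal than basal reads (0.0337), and passed in 2 of the 6 fits that left out 1 plate. The other large falls included those of Clmp, Col5a1, Aff3, 6530402F18Rik and Camk4 against basal cells, and of Meox1, Pcdh17, *Sparcl1*, Cpxm2 and Rgl1 against intermediate cells, and *Dll1* was among the 10 largest in both. Of the former Clmp, Aff3 and Camk4 passed without each plate in turn, Col5a1 in 4 and 6530402F18Rik in 2 of those fits. Of the latter Rgl1 passed in 6, Cpxm2 in 2, Meox1 in 1 and Pcdh17 and *Sparcl1* in none. On SMACre plates alone, or with Cre line at a chase time as the unit, Aff3, Camk4 and Rgl1 did not pass. Aff3 was also lost with at most 1 *Dcpp1* read. Cells with 0.1% or more endothelial reads were, among GFP+ cells, in the basal and intermediate gates. Without them, 43 of 51 named calls tested against intermediate cells held, and 73 of 76 against basal cells.

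Cells with genes of the HRpos lineage were present in the luminal gate too. Of 9 genes tested 2 rose against basal cells, *Foxa1*, a pioneer factor of oestrogen receptor binding (0.0121), and *Cited1*, a transcriptional co-regulator (0.00476), and none passed against intermediate cells. *Foxa1* was at 180.9, 97.9, 4.65, 9.14, 27.6, 51.3 and 18.1 CPM in luminal sums, a wide spread with the 1-week plate highest, and its call was lost without the 3-week plate A. *Pgr*, the progesterone receptor, was at 238.2, 104.04, 32.2, 41.7, 24.4, 121.01 and 13.2 CPM and missed the threshold against basal cells (0.105), and *Esr1* showed no direction, higher on 3 of 6 plates (0.869). At least 2 of *Pgr*, *Foxa1*, *Prlr*, *Esr1* and *Cited1* were read in 58 luminal GFP+ cells (30.9%, exact 95% CI 24.3 to 37.98). The share was 5 of 9 cells at 1 week, 7 of 18 and 3 of 18 on the 3-week plates A and B, 8 of 51 at 4 weeks, 28 of 81 at 6 weeks, and 3 of 6 and 4 of 5 on plates G and L, so it did not follow the order of chase times. Over the 6 plates with all 3 gates the mean share was 42.8% ± 24.6 (SD) in luminal, 28.3% ± 14.9 in intermediate and 26.9% ± 19.4 in basal GFP+ cells, a difference that was not tested. Pooled over plates it was 29.5% of intermediate and 16.1% of basal GFP+ cells. For *Esr1* alone the mean share was lowest in the luminal gate, at 33.5% ± 25.4, against 44.1% ± 16.6 in intermediate and 42.1% ± 16.6 in basal cells. For *Pgr*, *Foxa1*, *Prlr* and *Cited1* it was highest there. None of these shares was tested.

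Proliferation genes varied from plate to plate. *Mki67*, a marker of cycling cells, was at 79.3, 159.3, 248.2, 98.1, 2.82, 57.4 and 0.106 CPM in luminal sums, with the 6-week plate and plate L near 0. At 100000 reads it was read in 9 of 18 cells of the 3-week plate B (50.0%, exact 95% CI 26.02 to 73.98) and in 1 of 81 cells at 6 weeks (1.23%, 95% CI 0.0313 to 6.69). Over the 6 plates with all 3 gates the mean share with a read was 22.1% ± 16.6 (SD) in luminal, 17.1% ± 17.5 in basal and 7.98% ± 7.30 in intermediate GFP+ cells, and the difference in shares was not tested. None of 15 cell cycle genes and none of 15 lipid synthesis genes passed against either gate, with medians of 3.27 and -0.32 on the log2 scale against basal cells, where the spread between plates was wide.

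Genes of other cell types were checked in the luminal sums. Endothelial genes summed to 0.111 to 10.3 CPM in luminal sums, against 567.6 CPM in the basal sum of the 1-week plate and 1097 and 754 CPM in the intermediate sums of the 1-week plate and 3-week plate A. Leaving out the endothelial-rich cells, which were in those other gates, gave 326 calls against basal cells, and 0.992% of genes tested were called against intermediate cells. Immune genes summed to 2.75 to 27.3 CPM in luminal sums, mostly *Cd68*, fat cell genes to at most 12.2 CPM and red blood cell genes to at most 3.35 CPM. The lactoperoxidase gene *Lpo* was at 102.8 and 251.9 CPM in the luminal sums of the 1-week plate and 3-week plate A and at 0 CPM there without the 3 salivary-rich cells.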

How the data were processed

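Smart-seq2 libraries of single GFP+ and GFP- cells had been made by the authors, who, per the labels and the submitters' processing notes, used Trim Galore 0.6.5, STAR 2.7.7a and HTSeq 0.13.5 on GRCm38 and deposited raw read counts per gene without normalization. Batches 1 and 2 were single-end and batch 3 paired-end. Spike-in and summary entries were set apart. Of 39154 gene identifiers, 37893 matched a symbol in GENCODE.

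Cells were kept as described in the report, with 10% as the limit on mitochondrial reads, which left 188 of 229 luminal, 112 of 147 basal and 244 of 284 intermediate GFP+ cells. The study's methods give at most 1 *Dcpp1* read, which was run as an alternative. Doublets were not called, as cells were sorted singly. Counts were summed per gate and plate with at least 3 cells (18 sums). Plates, not cells, were the replicates, and the plate was the block, since its gates come from the same mice. edgeR 4.0.16 in R 4.3.3 (filterByExpr, TMM, glmQLFTest, two-sided, Benjamini-Hochberg over all 13796 tested genes, threshold 0.05) gave both comparisons in 1 fit, so both share the luminal sums. P-values measure the spread between plates, and the labels do not tie cells to mice. The SE of a log2 fold change is its absolute value divided by the square root of the F statistic of the test, so it is approximate. The common dispersion was 1.063. On simulated counts, 67.2% of 16-fold and 17.9% of 4-fold changes were recovered against basal cells, with 1 false call of 115. Shares used cells thinned to 100000 reads and exact sign-flip permutation tests. Medians and figures used Python 3.11.15 (pandas 2.3.3, scipy 1.17.1, matplotlib 3.10.9).

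The members, gene lists and tests were chosen with earlier results of these data known. Named genes are those of the lists and, per comparison, the 10 largest rises and falls among called genes that moved alike on 6 of 6 plates with a mean of at least 10 CPM in the higher gate, and 1 of these is not reported here. The alternatives included DESeq2 1.42.0, omission of the low-count filter, only the gates compared, Cre line and chase time as unit, no plate block, each plate left out, K5Cre or SMACre plates only, at most 1 *Dcpp1* read, thinned cells, at least 5 cells per sum and other read thresholds. Leaving out cells with 1% or more salivary reads or 0.1% or more endothelial reads was added after seeing the data.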

Additional observations from a re-analysis of the deposited data

Results flagged for a closer look

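Of 29 groups of plates examined for a sample far from the rest, 4 stood out, and chance alone would give about 1 in 20. *Dll1* was at 3.92 CPM in the luminal GFP+ sum of the SMACre 4-week plate, against 0 to 0.282 CPM in the other luminal sums. The same plate had the highest luminal sum of *Acta2*, at 471 CPM. The share of intermediate GFP+ cells with *Krt5* or *Krt14* was 50.0% on the SMACre 1-week plate, which held 4 such cells, against 81.2% to 100% elsewhere. The share of cells with *Kit* and *Aldh1a3* was 1.96% in basal GFP+ cells of the 1-week plate, which is 1 cell of 51, and 0% on the other plates. In intermediate GFP+ cells it was 4.92% on K5Cre plate L, against at most 1.67% elsewhere.

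The difference between gates itself differed between Cre lines for 4 of 13796 genes against basal cells and 1 against intermediate cells (edgeR interaction term), with 938 and 742 genes at an unadjusted p under 0.05. *Krt79*, a keratin gene (adjusted p = 0.00116), was at 197.7 and 485 CPM in the basal and 21.3 and 28.7 CPM in the luminal sums of the K5Cre plates, but at 101.2 and 47.3 CPM in the luminal sums of the SMACre 1-week plate and 3-week plate A, where the basal sums held 0.230 and 0.415 CPM. On the SMACre 3-week plate B and 4-week plate its luminal sums were 0 and 0.816 CPM and its basal sums 0 CPM, and the 1-week plate and 3-week plate A are those with the 3 salivary-rich cells, whose part in this was not tested. *Net1* (0.0144 against basal and 0.0245 against intermediate cells), was at 1.496 and 0.106 CPM in the K5Cre luminal sums and at 28.7 to 147.5 CPM in the SMACre ones. *Apobec1* (0.0444) was at 0 CPM in both K5Cre luminal sums, and *Itpripl2* (0.00776) at 0 CPM in both K5Cre basal sums. These 4 genes lie outside the rule for named genes and were chosen after their values were seen. Line and batch cannot be told apart, and each K5Cre luminal sum rests on 5 or 6 cells.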

How the results depend on the processing

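Against basal cells the 374 calls, 2.71% of genes tested, became 1674 with DESeq2 (12.1%), 919 without a filter on low counts (2.63% of 34920 genes), 588 with cells thinned to 100000 reads (5.56%) and 642 with at least 5 cells per sum (4.39%). They were 1.85% of genes tested with only the 2 gates compared, 0.837% with Cre line and chase time as unit, 0.965% on SMACre plates only, 0.965% with at most 1 *Dcpp1* read and 0.0134% (2 genes) on K5Cre plates only. With one plate left out they were 0.964% to 2.85%. Against intermediate cells the 1.31% became 1070 calls with DESeq2 (7.76%), 661 without a filter (1.89%), 331 with thinned cells (3.13%), 2.02% with at least 5 cells, 46 with only the 2 gates (0.375%), 21 with Cre line and chase time as unit (0.131%), 46 on SMACre plates only (0.336%), 30 with at most 1 *Dcpp1* read (0.221%) and 0 on K5Cre plates only. For the last, edgeR gave 859 genes at an unadjusted p under 0.05, and DESeq2 was not run on that subset. With one plate left out they were 0.19% to 1.72%. Without the plate as replicate block 366 genes (2.65%) and 1.11% were called. Without salivary-rich cells 370 (2.68%) and 1.37% were called. Without endothelial-rich cells it was 326 (2.38%) and 0.992%. No gene called with all plates changed direction under any of these settings in which it was tested. Of the 76 named genes called against basal cells, 43 passed with at most 1 *Dcpp1* read and 40 with Cre line and chase time as unit, and of the 52 against intermediate cells 13 and 11 did.

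Luminal shares differed in the same direction under every setting, but with 5 plates or fewer the exact permutation test cannot pass 0.05, and adjustment over the 4 tests takes both comparisons with basal cells, which keep 6 plates with at least 5 cells per share, to 0.0625 as well. For basal keratins against basal and intermediate cells and for *Kit* with *Aldh1a3* against the same, the differences were -73.9, -67.3, 64.7 and 63.8 percentage points with at most 1 *Dcpp1* read, -68.7, -59.4, 56.3 and 55.7 with Cre line and chase time as unit, and -72.5, -76.1, 61.4 and 68.4 with at least 5 cells per share. With one plate left out they were -77.8 to -69.2, -76.1 to -61.2, 55.9 to 69.7 and 55 to 68.4. Without salivary-rich cells the basal keratin difference to intermediate cells was -63.1 points.

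Changes of sign were seen for *Notch1* and *Ehf*, in differences that did not pass. *Notch1* against basal cells, at 0.01 on the log2 scale, became -0.05 with Cre line and chase time as unit, -0.98 on K5Cre plates only, -0.18 with at most 1 *Dcpp1* read and -0.23 to 0.35 with one plate left out. Against intermediate cells it became 0.09 on SMACre plates only, and *Ehf* -0.03 on K5Cre plates only.

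The limits are those of few plates and few cells. The 1-week, 4-week and 6-week times had 1 plate each, the K5Cre plates 11 luminal GFP+ cells, and the intermediate gate of the 1-week plate 4 cells. On simulated counts 17.9% of 4-fold changes against basal cells were recovered, so a gene that did not pass may still differ. Only 2 of the 18 kept luminal GFP+ cells of 3-week plate A had at most 1 *Dcpp1* read.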

Other observations

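Luminal GFP- cells, the native cells of the same gate, came from 8 plates, the 7 of the luminal GFP+ cells and a further SMACre 3-week plate (C) that gave 5 of them. Their values are given beside the luminal GFP+ cells without a test. The pooled shares mix plates in unlike proportions, since the 6-week plate held 81 of the luminal GFP+ cells but 12 of 51 GFP- cells, so counts of plates by direction are given with them. Of 51 kept luminal GFP- cells, 35 (68.6%, exact 95% CI 54.1 to 80.9) had at least 5 of the 7 markers, against 89.9% of GFP+ cells. By plate the GFP+ share was higher on 5 and lower on 2 of the 7 plates that held both, with 3 of 9 GFP+ against 5 of 6 GFP- cells on the 1-week plate. *Krt8* was read in 51 of 51 and *Krt18* in 50 of 51 GFP- cells. *Elf5* was read in 45.1% of GFP- and 70.2% of GFP+ cells, with the GFP+ share higher on 5, lower on 1 and equal on 1 of the 7 plates. *Kit* with *Aldh1a3* was read in 45.1% and 72.3%, higher in GFP+ cells on 5 plates, equal on the 3-week plate A and lower on the 1-week plate, at 2 of 9 GFP+ against 4 of 6 GFP- cells. *Krt5* or *Krt14* was found in 5 of 51 GFP- cells (9.80%, 95% CI 3.26 to 21.4) and 25 GFP+ cells (13.3%), with the GFP+ share higher on 5 and lower on 2 plates. HRpos genes, at least 2 of 5, were read in 41.2% of GFP- and 30.9% of GFP+ cells when pooled, but the GFP+ share was the higher one on 6 of the 7 plates that held both. For *Prlr*, read in 70.6% and 51.6%, it was higher on 2, lower on 4 and equal on 1.

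*Nrarp* was read in 6 of 51 luminal GFP- cells (11.8%, 95% CI 4.44 to 23.9) and in 53.7% of luminal GFP+ cells (95% CI 46.3 to 61.01), and the GFP+ share was higher on 7 of 7 plates. *Hey1* was read in 25.5% of GFP- and 48.4% of GFP+ cells, with the GFP+ share higher on 6 of 7 plates. *Heyl* was read in 15.7% (95% CI 7.02 to 28.6) and 23.4% (95% CI 17.6 to 30.1), higher in GFP+ cells on 4 plates and lower on 2, the 6-week plate among them. *Hes1* was read in 49.02% and 68.1%, also higher on 4 and lower on 2, with 6 of 6 GFP- against 6 of 9 GFP+ cells on the 1-week plate. *Aqp5* was read in 66.7% of GFP- and 66.5% of GFP+ cells, with the GFP+ share higher on 4 and lower on 3 plates.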
